A study of Mus musculus with 8 samples.

Results

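Among CD8 T cells sorted from mouse tumors, the cells that carried PD-1 on their surface but neither LAG3 nor 4-1BB were compared with the cells that carried none of these receptors. The members are arrays, chosen by the receptors named in their titles: 4 of the 8 arrays in the series, 2 of PD-1+ cells (CD8+, 4-1BB-, LAG3-, PD-1+) and 2 of triple-negative cells (CD8+, 4-1BB-, LAG3-, PD-1-), with 1 array of each population from experiment 1 and 1 from experiment 2. The other 4 arrays hold LAG3+ cells (4-1BB-, LAG3+) and double-positive cells (4-1BB+, LAG3+), whose labels give no PD-1 status. All 8 share their source. Female C57BL/6 mice, 10 by the series' account, carried B16.SIY.dsRed tumors on both flanks, grown from injected cells of a mouse melanoma line made to express the SIY model antigen and the red fluorescent protein dsRed, and neither the mice nor the cells were treated. On day 14 the tumors were pooled, passed through a 50 µm filter and enriched for lymphocytes on Ficoll, and live cells were sorted by their CD3, CD4 and CD8a and by the 3 receptors. No source used here says whether each experiment had its own 10 mice. A replicate is therefore an experiment with pooled mice, and p-values measure the spread between pools, not between animals. In such bulk samples, fewer cells of a type and less RNA per cell cannot be told apart.

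PD-1, encoded by Pdcd1, is an inhibitory receptor that appears on T cells after antigen recognition and stays on T cells that meet antigen again and again, as tumor-infiltrating cells do. It binds PD-L1 and PD-L2 and recruits phosphatases that dampen signalling by the T cell receptor and CD28. LAG3 is a second inhibitory receptor, which binds MHC class II, and 4-1BB (Tnfrsf9) is a costimulatory receptor of the TNF receptor family. T cells that have not met antigen express homing receptors and quiescence factors such as Klf2, the interleukin-7 receptor (Il7r) and Tcf7. Activated CD8 cells lose these and gain cytokines, granule proteins and genes of cell division.

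Signals were scanned on 1-colour Illumina mouse bead arrays and are given as normalised log2 values, on which a gene near background lies at about 4. The PD-1+ arrays stood apart before any comparison. They had the lowest mean unnormalised intensities, 123 in experiment 1 and 90.9 in experiment 2, against 216 and 135 on the triple-negative arrays. They detected 6404 and 5522 of 25697 probes, against 9044 and 6933. The 2 PD-1+ arrays also matched each other least: over 7893 tested genes their correlation was 0.771, against 0.898 for the triple-negative pair, 0.928 for the LAG3+ pair and 0.934 for the double-positive pair. Each PD-1+ array correlated with single arrays of other populations at 0.778 to 0.853. For this reason the values of each experiment are given apart throughout, and their mean with its standard error (SE) comes from a limma fit in which all 8 arrays share the estimate of spread. Over genes, the difference between the 2 PD-1+ arrays had an SD of 1.27. It was 0.83 for the triple-negative, 0.696 for the LAG3+ and 0.668 for the double-positive pair. The shared spread can therefore make the SE and p-values of PD-1+ comparisons too small.

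The sorted receptors were looked at first, as a check on the labels. The Pdcd1 probe was dim on every array. Its log2 signal was 4.19 and 4.12 on the triple-negative arrays of experiments 1 and 2, where it was not detected, and 5.39 and 4.27 on the PD-1+ arrays, where it was detected in experiment 1 and not in experiment 2. The mean difference of 0.68 ± 0.42 (SE) did not pass the limma test (adjusted p = 0.515), so the Pdcd1 transcript did not separate the populations at this signal and the PD-1 label rests on the surface stain. Tnfrsf9, whose protein was absent from both populations by the gate, read 4.71 and 5.16 in triple-negative cells and 6.66 and 8.16 in PD-1+ cells. Both PD-1+ arrays lay above both triple-negative arrays, as in 17.6% of all 7893 genes tested, with a mean difference of 2.47 ± 0.50 that did not pass (adjusted p = 0.0842), and a dimmer Tnfrsf9 probe gave 2.93 in experiment 1 and 0.46 in experiment 2.

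The gene of the other receptor that the gate required to be absent, Lag3, rose strongly. Its log2 signal was 4.64 and 4.32 in triple-negative cells of experiments 1 and 2, and 8.41 and 8.92 in PD-1+ cells. The groups were far apart in both experiments, and Lag3 was higher in PD-1+ cells by 4.18 ± 0.36 on the log2 scale, an 18.1-fold difference (limma, adjusted p = 0.0198). The unnormalised intensities behind these values were 111 and 85.2 in triple-negative cells and 276 and 172 in PD-1+ cells. The normalised signal was 9.39 and 8.99 on the LAG3+ arrays and 9.12 and 9.56 on the double-positive arrays. On this scale PD-1+ cells lay 0.53 ± 0.36 below LAG3+ cells and 0.68 ± 0.36 below double-positive cells. These differences did not pass (limma, adjusted p = 0.609 and 0.433), although the 3 populations share the fit and a p above the threshold does not show equal levels. The gap was wider before normalisation, at 1004.5 and 375 on the LAG3+ and 945 and 759 on the double-positive arrays.

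No T cell marker passed the test between PD-1+ and triple-negative cells. Cd8b1, which encodes the CD8 beta chain, read 12.50 and 12.08 in triple-negative and 12.43 and 12.50 in PD-1+ cells, and the CD3 epsilon gene Cd3e differed by 0.40 ± 0.32 (adjusted p = 0.636). The test could be run on 9 of the 10 markers. The signal summed over the list, after removing the offset, was 18100 and 17000 on the triple-negative arrays and 17200 and 18500 on the PD-1+ arrays. The Cd8a probe was not detected on any of the 8 arrays.

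Over all 7893 genes tested, 18 (0.228%) were higher and 24 (0.304%) lower in PD-1+ than in triple-negative cells (limma over all 8 arrays, Benjamini-Hochberg adjusted p under 0.05). Each of the 42 moved the same way in both experiments. Among the 18 higher genes, 11 encode replication-dependent histones, and the other 7 are Lag3, Grb7, Cyp4f18, Rrm2, Chil3, Dab2 and 6330403K07Rik. The 24 lower genes were led by Igfbp4, Pja1, Ormdl3, Ccdc174 and Entpd4. At an unadjusted p under 0.05 there were 1167 genes, and a simple exact test of 2 against 2 arrays could not go below 0.333. This main fit leaves out the pairing by experiment. With the experiment number as a replicate block, 28 genes passed, 16 higher and 12 lower. Among them were 21 of the 42, each at an adjusted p of 0.0499. The other 21 of the 42 lay between 0.053 and 0.0661. None of the 42 passed when only the 4 PD-1+ and triple-negative arrays were fitted, where 742 genes had an unadjusted p under 0.05, or when any 1 triple-negative, LAG3+ or double-positive array was left out. With array weights, which gave the PD-1+ pair a weight of 0.46, none of the 42 passed either. All 42 kept their direction in every alternative. Without the PD-1+ array of experiment 1, 115 genes were higher and 180 lower, among them all 42, and without that of experiment 2 the counts were 62 and 65, with 30 of the 42.

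The normalisation also set the balance of directions. When each array was scaled by its 75th percentile in place of the quantile step, a choice added after seeing the data, 49 genes were higher and 4 lower, and the median difference of all genes moved by 0.80 towards PD-1+ cells. All 18 higher genes stayed above that shift and all 24 lower genes stayed below 0. With raw intensities quantile-normalised and no background correction the split was 25 higher and 13 lower.

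Single experiments gave a wider view. A difference of at least 1 log2 unit upwards in both experiments was shown by 252 genes (3.19%), and downwards by 463 (5.87%). Opposite changes of that size were shown by 151 genes (1.91%) that were higher in experiment 1 and lower in experiment 2 and by 139 (1.76%) with the reverse. In all, 58.2% of genes had the same sign in both experiments. Across genes, which are not independent replicates, the differences of the 2 experiments correlated at r = 0.241 (rho 0.222), and at 0.344 (rho 0.307) over the 3224 genes detected on all 4 arrays.

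**Figure D1:**
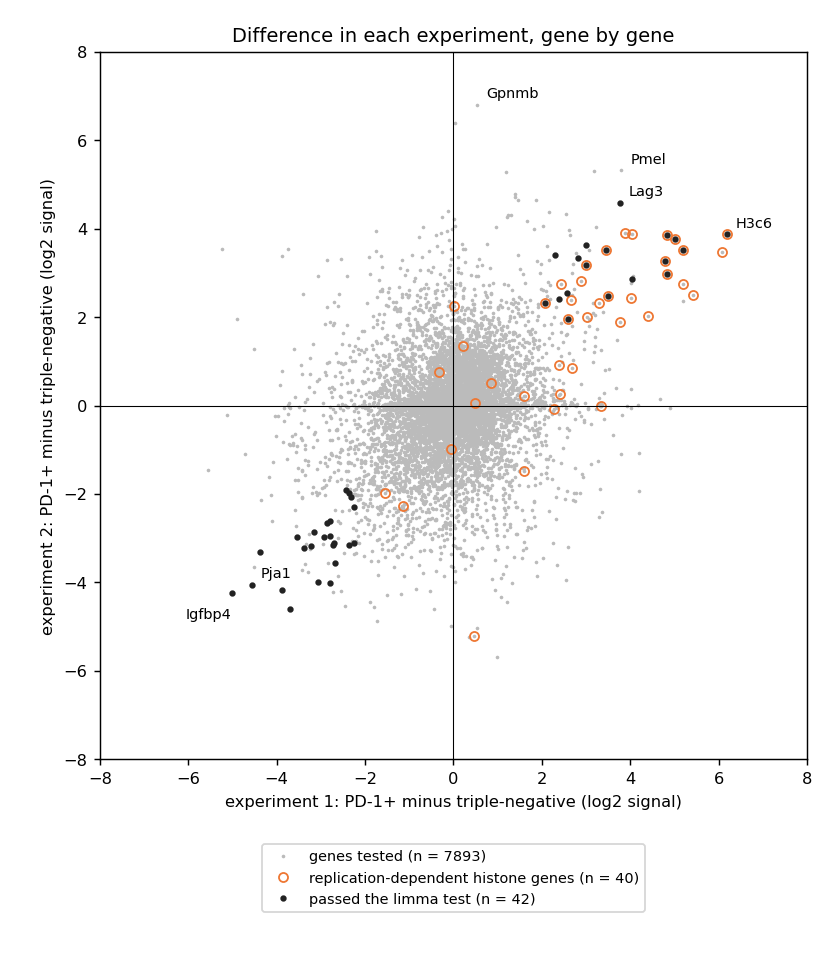
Difference between PD-1+ and triple-negative cells in experiment 1 (horizontal) and experiment 2 (vertical), in log2 signal, 1 point for each of 7893 genes. Black points are the 42 genes that passed the limma test and orange rings the 40 tested histone genes; most rings lie at the upper right, while Gpnmb moved in experiment 2 only.

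Detection was one-sided. Of the 24 lower genes, all were detected on both triple-negative arrays and 22 on neither PD-1+ array. Over all genes tested, 702 (8.89%) were detected on both triple-negative and neither PD-1+ array, and 73 (0.925%) the other way round. Of the 18 higher genes, 5 were detected on neither triple-negative array. Among the 3224 genes detected on all 4 arrays, 154 were higher and 130 lower by at least 1 log2 unit in both experiments, and 6 and 1 passed the test. The lower signal of the PD-1+ arrays moved with these counts, and its part in them was not tested. Where a gene was detected on neither array of the dimmer population, its change is given as a lower bound: the mean of the brighter population against the mean of, per array, the higher of the gene's own signal and the lowest signal of any detected probe.

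In 7 of the 18 higher genes the means of all 3 receptor-positive populations were at least 2 log2 units above triple-negative cells. Lag3, Grb7 and Rrm2 were among them, and the rest were histone genes. In 14 of the 18 the PD-1+ mean lay over 1 log2 unit above both the LAG3+ and the double-positive mean, so the 2 sets overlap. Grb7, an adaptor that binds receptor tyrosine kinases, read 4.14 and 4.80 in triple-negative cells and 8.17 and 7.65 in PD-1+ cells, a 10.9-fold difference (3.44 ± 0.44, adjusted p = 0.0417). LAG3+ arrays read 6.69 and 7.43 and double-positive arrays 6.77 and 7.33, below both PD-1+ arrays. Rrm2, the small subunit of ribonucleotide reductase, which makes deoxyribonucleotides for DNA synthesis, read 5.29 and 4.36 against 8.12 and 7.69, an 8.45-fold difference (3.08 ± 0.41, adjusted p = 0.0445, and 0.053 with the replicate block). Its LAG3+ and double-positive arrays, at 7.59 to 8.10, overlapped the PD-1+ arrays, and a second Rrm2 probe differed by 2.58 and 2.11 in the 2 experiments.

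Cyp4f18, Chil3 and Dab2 had their 2 highest values on the PD-1+ arrays, and were near background on the LAG3+ and double-positive arrays. Cyp4f18, a cytochrome P450 that hydroxylates leukotriene B4 in mouse neutrophils, read 4.94 and 4.44 in triple-negative and 7.94 and 8.08 in PD-1+ cells, 9.98-fold higher (3.32 ± 0.31, adjusted p = 0.0198). On the LAG3+ and double-positive arrays it lay between 4.20 and 4.26. Chil3, a chitinase-like protein secreted by myeloid cells, read 4.20 and 4.16 against 6.76 and 6.69, at least 4.78-fold higher (adjusted p = 0.035), with 4.12 to 4.22 elsewhere. Dab2, an endocytic adaptor, read 4.18 and 4.41 against 6.57 and 6.82, at least 4.67-fold higher (adjusted p = 0.0417, and 0.053 with the block). These changes rest on small differences in unnormalised intensity. In experiment 2 they were 86.3 against 81.4 for Chil3, 88.1 against 86.0 for Dab2 and 120 against 86.3 for Cyp4f18. Each of the 3 was nevertheless detected on both PD-1+ arrays, and second probes of Chil3 and Cyp4f18 moved the same way in both experiments. The transcript 6330403K07Rik was at least 5.95-fold higher (adjusted p = 0.0487, and 0.0565 with the block) and was also high on the LAG3+ arrays.

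**Figure D2:**
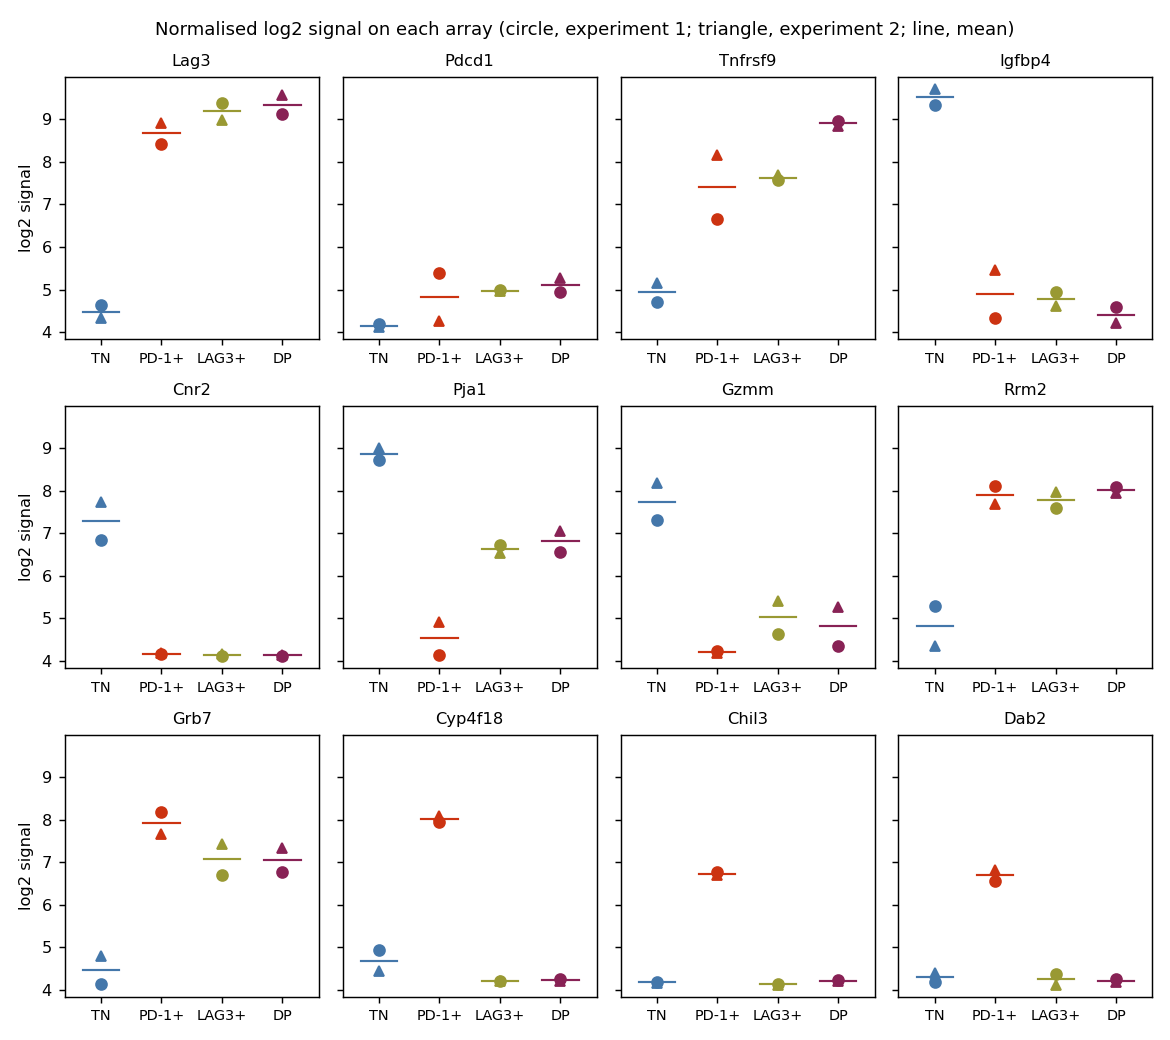
Normalised log2 signal of 12 genes on each of the 8 arrays, by population (TN, triple-negative; DP, double-positive), with circles for experiment 1, triangles for experiment 2 and a line at the mean of 2 arrays. Lag3 was high in all 3 receptor-positive populations, Igfbp4 and Cnr2 were high in triple-negative cells, and Cyp4f18, Chil3 and Dab2 stood out on the PD-1+ arrays.

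Replication-dependent histone genes formed the largest block of higher genes. They encode the core and linker histones that package newly made DNA, are transcribed mainly in S phase from clusters of near-identical genes, and give messenger RNAs that end in a stem-loop in place of a poly(A) tail. The list was added after the values were seen. The promoters of the 3 genes with the largest changes among the 11 that passed are shown because these genes rose together: these are the 120 bases before the transcription start from RefSeq, build GRCm38.p6, with capitals at CCAAT (or ATTGG, the same motif on the other strand) and TATAAA. H3c6 lies at chr13:23562386-23562505 on the minus strand, H2ac22 at chr13:21787249-21787368 on the minus strand, and H2ac10 at chr13:23533755-23533874 on the plus strand.
H3c6: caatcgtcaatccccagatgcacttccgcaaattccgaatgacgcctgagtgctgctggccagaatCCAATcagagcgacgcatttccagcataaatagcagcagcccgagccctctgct
H2ac22: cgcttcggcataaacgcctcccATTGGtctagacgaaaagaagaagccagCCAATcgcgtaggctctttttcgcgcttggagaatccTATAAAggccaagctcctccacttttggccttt
H2ac10: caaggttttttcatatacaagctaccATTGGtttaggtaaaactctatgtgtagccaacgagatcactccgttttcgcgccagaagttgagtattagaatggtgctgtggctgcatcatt
CCAAT, the motif bound by NF-Y, occurred on either strand within 250 bases before the start in 30 of the 36 tested histone genes with a RefSeq promoter (83.3%), against 34.5% of 27025 promoters. TATAAA, which does not overlap it, occurred in 16 of 36 (44.4%), against 13%. CCAAT occurred in 82.6% of the 23 histone genes that were higher by at least 1 in both experiments and in 84.6% of the other 13, and TATAAA in 52.2% and 30.8%. A match is a description of the letters and not a measured site.

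Of 51 such genes on the array, 40 passed the filter on dim probes. Of these, 11 were higher by the test and none lower, 32 were higher in both experiments (26.7% over all genes), 24 by at least 1 log2 unit (3.19% over all genes), and 2 were lower by at least 1 in both. H3c6, which encodes histone H3, read 4.87 and 7.0 in triple-negative and 11.06 and 10.88 in PD-1+ cells, 32.7-fold higher (5.03 ± 0.72, adjusted p = 0.0487). H2ac22, a histone H2A gene, read 6.09 and 7.22 against 11.10 and 10.98, 20.9-fold higher (4.39 ± 0.41, adjusted p = 0.0198). For both genes the PD-1+ arrays lay close together and far above the triple-negative arrays, of which that of experiment 2 was the higher.

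The other histone genes that passed were H2ac10 (20.6-fold), H3c1 (20.3-fold), H2ac24 (16.3-fold), H2bc14 (15.1-fold), H2ac12 (11.2-fold), the linker histone gene H1f5 (7.90-fold), H3c3 (at least 7.29-fold), H2bc7 (4.83-fold) and H2bc9 (at least 3.88-fold). The last 2 were near background. Unnormalised, H2bc7 read 139 in PD-1+ against 93.1 in triple-negative cells in experiment 1, and 88.2 against 89.5 in experiment 2. H2bc9 read 116 against 91.4 and 84.8 against 84.4. With the replicate block 7 of the 11 passed, and H2bc14, H1f5, H2bc7 and H2bc9 lay at an adjusted p of 0.053 to 0.0565. H3c4, H4c12 and H4c18, among the genes with the largest change in both experiments, were over 3 log2 units higher in each and did not pass (adjusted p = 0.0505, 0.0702 and 0.0789). H2ac18, H1f2 and H2bc18 went the other way, at -2.37, -1.77 and -1.70, none of which passed. These coding sequences are so alike that a probe may read several paralogs, which was not tested. The counts of histone genes and the family total may then include the same transcripts more than once.

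That total set the PD-1+ arrays apart. The summed histone signal was 35400 and 30200 on the PD-1+ arrays and 2530 and 8300 on the triple-negative arrays. It was 7640 and 7750 on the LAG3+ and 7430 and 8540 on the double-positive arrays. The PD-1+ arrays were the 2 highest of the 8, and the triple-negative array of experiment 2 lay near the LAG3+ and double-positive arrays. The median difference over the 40 genes was 2.93 in experiment 1 and 2.28 in experiment 2, against -0.02 and -0.04 over all genes. Under percentile scaling the family median stood 1.99 above the shift of all genes. The same 40 genes lay at a median of 1.93 above LAG3+ and 1.72 above double-positive cells, where no single histone gene passed.

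**Figure D3:**
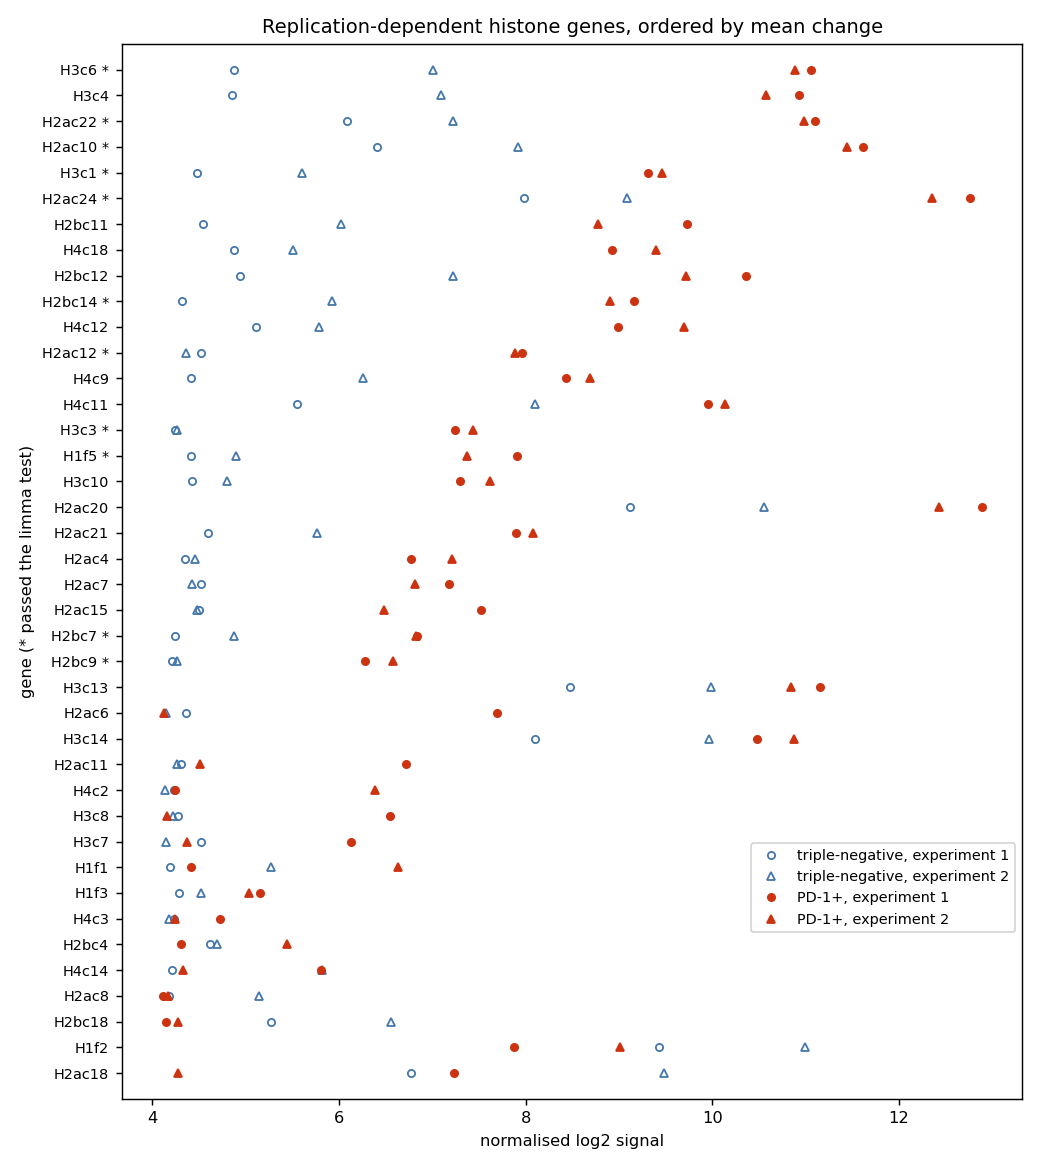
Normalised log2 signal of the 40 tested replication-dependent histone genes, 1 row a gene, on the 2 triple-negative (open blue) and 2 PD-1+ arrays (filled red), with circles for experiment 1 and triangles for experiment 2. In the upper rows both PD-1+ arrays lie to the right of both triple-negative arrays, and stars mark the 11 genes that passed.

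Igfbp4, a secreted protein that binds insulin-like growth factors, fell the most. Its log2 signal was 9.33 and 9.71 in triple-negative cells and 4.33 and 5.47 in PD-1+ cells, where it was detected in experiment 2 only. It fell by 4.62 on the log2 scale (± 0.45), a 24.6-fold difference (limma, adjusted p = 0.0198), and a second Igfbp4 probe differed by -2.57 and -2.96. LAG3+ arrays read 4.95 and 4.60 and double-positive arrays 4.58 and 4.22, all well below the triple-negative arrays.

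Some of the lower genes were low in all receptor-positive cells and others mainly on the PD-1+ arrays. In 9 of the 24 the means of all 3 receptor-positive populations were at least 2 log2 units below triple-negative cells. Besides Igfbp4 these include Cnr2, a cannabinoid receptor of leukocytes, which was at least 5.40-fold lower in PD-1+ cells (adjusted p = 0.035), and Tha1, a threonine aldolase, at least 4.62-fold lower (adjusted p = 0.0198). Cnr2 read 6.85 and 7.74 in triple-negative cells and 4.16 and 4.18 in PD-1+ cells. Gzmm, which encodes the granule protease granzyme M, read 7.31 and 8.18 against 4.25 and 4.19, at least 7.40-fold lower (adjusted p = 0.0487), with LAG3+ and double-positive means of 5.02 and 4.81. Gpr146, a G protein-coupled receptor, Il11ra1, the alpha chain of the interleukin-11 receptor, and Oasl2, an interferon-induced gene, were at least 6.53-fold, 4.96-fold and 4.10-fold lower (adjusted p = 0.0445, 0.027 and 0.0445; with the block 0.0563, 0.0499 and 0.0563). Second probes moved less, with mean differences of -1.07 for Gpr146 and -0.35 for Oasl2.

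In 13 of the 24 the PD-1+ mean lay over 1 log2 unit below both the LAG3+ and the double-positive mean. Pja1, an E3 ubiquitin ligase and the only gene counted in both sets, read 8.71 and 8.99 in triple-negative and 4.15 and 4.93 in PD-1+ cells, at least 15.9-fold lower (adjusted p = 0.0198), with means of 6.64 and 6.81 in LAG3+ and double-positive cells. Slc6a6, the taurine transporter, read 7.74 and 7.48 against 4.36 and 4.25, at least 6.73-fold lower (adjusted p = 0.0459, and 0.0563 with the block), with means of 8.41 and 8.11. In both genes the PD-1+ arrays were the lowest of the 8. Ormdl3, a regulator of sphingolipid synthesis, Ccdc174, Entpd4, a Golgi nucleotidase, and Nsun4, a methyltransferase of mitochondrial ribosomal RNA, were at least 11.9-fold, 11-fold, 9.23-fold and 7.12-fold lower than in triple-negative cells. Their adjusted p of 0.0445 to 0.0488 rose to 0.0563 to 0.0661 with the block. All 4 read between 6.92 and 8.76 as means in LAG3+ and double-positive cells. Bclaf1, a splicing-associated protein, was at least 6.03-fold lower (adjusted p = 0.0487, and 0.0565 with the block), but a second Bclaf1 probe detected on all 8 arrays differed by 0.69 and 0.13. The rest of the 24 lower genes are listed without regard to these sets. Smad1, which carries bone morphogenetic protein signals, was at least 4.87-fold lower, Myl12a, a myosin light chain, at least 5.50-fold, and Ripk1, a kinase of death receptor signalling, at least 4.50-fold. Nedd4l, Sema4f, Spata6, Ccar1, Orc5 and Herc4 were lower by at least 2.82-fold to 5.08-fold, and TLK2, detected on the PD-1+ arrays too, by 6.42-fold. With the block Nedd4l, Spata6, Ccar1, Orc5, Herc4 and TLK2 no longer passed (adjusted p = 0.0565 to 0.0575).

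Genes of naive and memory T cells were lower as a group. This list and those below were chosen with earlier results of these data known, so their counts are descriptive. Of 24 tested members (29 on the array of 30 listed), 18 were lower in both experiments (31.5% over all genes), 13 by at least 1 log2 unit (5.87%), and none was higher in both. The median difference was -1.43 in experiment 1 and -1.29 in experiment 2. Igfbp4 and Cnr2 fell by the test. Klf2, which drives homing receptor genes, differed by -2.34 ± 0.47, Il7r by -2.28 ± 0.49 and Tcf7, a factor of self-renewing T cells, by -1.34 ± 0.40 (adjusted p = 0.0803, 0.101 and 0.188). Both PD-1+ arrays were below both triple-negative arrays for each, as in 22.3% of all genes. Over the list, PD-1+ cells lay at a median of 0.64 above LAG3+ and 1.35 above double-positive cells.

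Effector cytokines and chemokines went the other way, though none passed. Of 14 tested genes, 10 were higher in both experiments (26.7% over all genes) and 7 by at least 1 log2 unit (3.19%), with medians of 1.19 and 0.93. The chemokine gene Ccl4 read 9.20 and 9.97 in triple-negative and 11.89 and 11.77 in PD-1+ cells (2.24 ± 0.37, adjusted p = 0.0585). Ifng, encoding interferon gamma, read 8.02 and 8.90 against 10.44 and 10.58 (2.05 ± 0.41, adjusted p = 0.0806). Ccl3 and the regulatory cytokine gene Il10 differed by 2.46 ± 0.44 and 3.04 ± 0.88 (adjusted p = 0.0691 and 0.179). In all 4 genes both PD-1+ arrays lay above both triple-negative arrays, as they did in 17.6% of all genes. The 15 tested cytotoxic genes were less even, with medians of 0.81 and 0.11, 7 higher in both experiments and only Gzmm past the threshold.

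Cell division genes depended on the experiment. Their median difference over 41 tested genes was 1.00 in experiment 1 and 0.06 in experiment 2, with 22 higher in both (26.7% over all genes) and 12 by at least 1 log2 unit (3.19%). Rrm2 rose by the test. Cdc20, an activator of the anaphase-promoting complex, Tk1, a thymidine kinase, and Kntc1, a kinetochore protein, were higher in both experiments by over 1 log2 unit (adjusted p = 0.05, 0.0528 and 0.0897). Mcm10, a replication initiation factor, was 3.79 higher in experiment 1 and 1.09 lower in experiment 2, at 8.67 and 4.23 on the PD-1+ arrays. E2f1 and Mcm2 had the same pattern, at 2.74 and -1.42 and at 1.36 and -1.08. The summed histone signal, by contrast, was high on both PD-1+ arrays. Relative to LAG3+ and double-positive cells, the cell division genes lay at medians of -0.62 and -0.69 in PD-1+ cells. The histone genes lay at 1.93 and 1.72 in the same comparisons. Of the 40 tested histone genes, 5 moved in opposite directions in the 2 experiments and 3 were lower in both.

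Other groups shifted less or without passing. Among 23 immediate early and dissociation-induced genes, 17 were lower in both experiments (31.5% over all genes; medians -1.11 and -0.66, none passed), as with Klf4 (-1.74 ± 0.42, adjusted p = 0.13) and Ppp1r15a (-1.17 ± 0.35, adjusted p = 0.196). The 14 BCL2 family and death genes had medians of -0.81 and -0.61, led by the initiator caspase gene Casp9 (-1.83 ± 0.31, adjusted p = 0.0606) and the survival gene Mcl1 (-1.64 ± 0.33, adjusted p = 0.0842). Cytosolic ribosomal protein genes were lower in both experiments in 34 of 57 cases (again against 31.5%), with medians of -0.32 and -0.47, and Rpl4 differed by -2.11 ± 0.39 (adjusted p = 0.0716).

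In the PD-1 pathway, whose 17 tested genes had medians of -0.35 and -0.40, Cd274, encoding PD-L1, read 7.12 and 6.61 against 5.60 and 5.12 (-1.50 ± 0.36, adjusted p = 0.128). Cd28 opposed itself, at -1.24 and 1.17. Inhibitory receptors other than Lag3 did not pass, and Havcr2, encoding TIM-3, was 3.40 higher in experiment 1 and 0.29 in experiment 2. Tpi1, a glycolytic enzyme, was the highest of 16 glycolysis genes (1.72 ± 0.31, adjusted p = 0.0702), with list medians of 0.94 and 0.41.

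Interferon-stimulated genes had medians of -0.31 and 0.03 and only Oasl2 past the threshold. The signs of the histone, naive and memory, cytokine, immediate early, BCL2 and ribosomal medians held with raw intensities, with the authors' values and, relative to the shift of all genes, with percentile scaling. The small positive medians of MHC class I presentation, oxidative phosphorylation and proteasome genes turned negative relative to that shift.

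**Figure D4:**
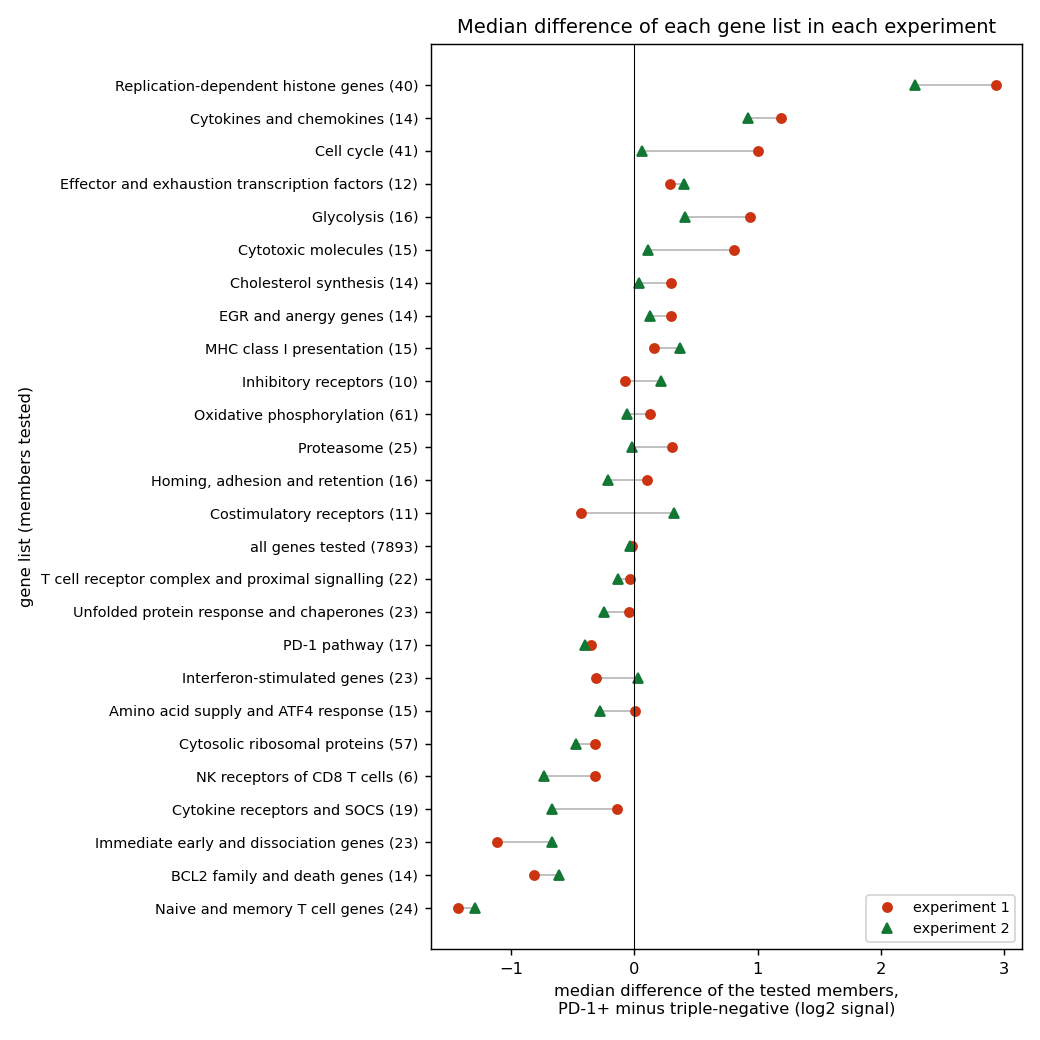
Median difference between PD-1+ and triple-negative cells over the tested members of each pathway or function list (marker lists of other cell types are not plotted), in log2 signal, in experiment 1 (circles) and experiment 2 (triangles), with all genes tested near 0. Histone genes and naive and memory genes lie at the ends of the plotted lists in both experiments, and cell cycle genes at 1.00 and 0.06 differ most between experiments among the lists above 0.

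After normalisation, transcripts of other tumor cell types were higher on the PD-1+ arrays. The summed signal of macrophage and monocyte markers was 81.8 and 179 in triple-negative cells and 323 and 1290 in PD-1+ cells, against 50.1 to 117 on the other 4 arrays. Of 13 such genes on the array, C1qc, Itgam and Cybb were detected nowhere. Lyz2, encoding lysozyme, read 5.23 and 6.69 against 7.34 and 9.16, Csf1r, the receptor for macrophage colony-stimulating factor, 4.56 and 5.54 against 6.17 and 6.97, and Apoe, a lipid carrier, 4.76 and 4.21 against 6.18 and 6.10. Unnormalised, Lyz2 was brighter in PD-1+ cells in both experiments (167 against 143 and 205 against 127). Csf1r was brighter in experiment 1 only (112.5 against 106.9 and 90.6 against 96.9). Apoe was brighter in neither (112.6 against 116.2 and 80.7 against 83.1). None of the 7 tested genes passed (Apoe, adjusted p = 0.0789). Of the 7, 5 were higher in both experiments (26.7% over all genes) and 2 lower in both (31.5%). The lower genes were Adgre1 (-0.14 and -0.19) and Fcgr1 (-0.36 and -0.13). Cyp4f18, Chil3 and Dab2 moved in the same direction as the 5 higher markers, and the part of myeloid cells in those results was not tested.

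Melanoma markers were higher still. Their summed signal was 735 and 4470 on the PD-1+ arrays and 135 and 106 on the triple-negative arrays. The LAG3+ arrays gave 423 and 2200, and the double-positive arrays 203 and 2310. Over the 6 tested genes the median difference from triple-negative cells was 0.91 in experiment 1 and 3.75 in experiment 2. Tyr and Mitf were detected on none of the 8 arrays. Pmel, which encodes a melanosome protein, read 4.95 and 5.15 in triple-negative and 8.75 and 10.47 in PD-1+ cells (4.56 ± 1.35, adjusted p = 0.191), but a second Pmel probe differed by 0.03 and 0.65. Gpnmb, a glycoprotein of melanosomes and macrophages, differed by 0.53 in experiment 1 and 6.80 in experiment 2.

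Class II and dendritic cell markers summed to 1260 and 582 in triple-negative and 1710 and 2030 in PD-1+ cells, with the dendritic cell genes Flt3, Xcr1, Itgax and Clec9a undetected throughout. B cell markers summed to 125 and 60.0 against 267 and 287, with Cd79a, Ms4a1, Pax5 and Ebf1 undetected on all arrays. NK cell markers summed to 152 and 153 against 210 and 494, and Ncr1 was not detected. The sums of these 5 lists were higher on both PD-1+ arrays than on both triple-negative arrays, but their members did not all move that way. Of 2 tested B cell genes, Cd79b differed by 1.29 and 2.32 in the 2 experiments and Cd22 by -0.27 and -0.43. Of 5 tested NK cell genes, Klrb1c and Klre1 were lower in both experiments and Tyrobp was lower in the first only. Neutrophil markers, by contrast, summed to 22.7 and 147 against 33.4 and 25.6, CD4 and regulatory T cell markers to 521 and 519 against 387 and 942, fibroblast and endothelial markers to 119 and 131 against 58.2 and 53.6, and erythroid markers to 32.1 and 14.7 against 26.0 and 16.8. The part of admixed cells in the histone, cytokine and cell division differences was not tested.

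**Figure D5:**
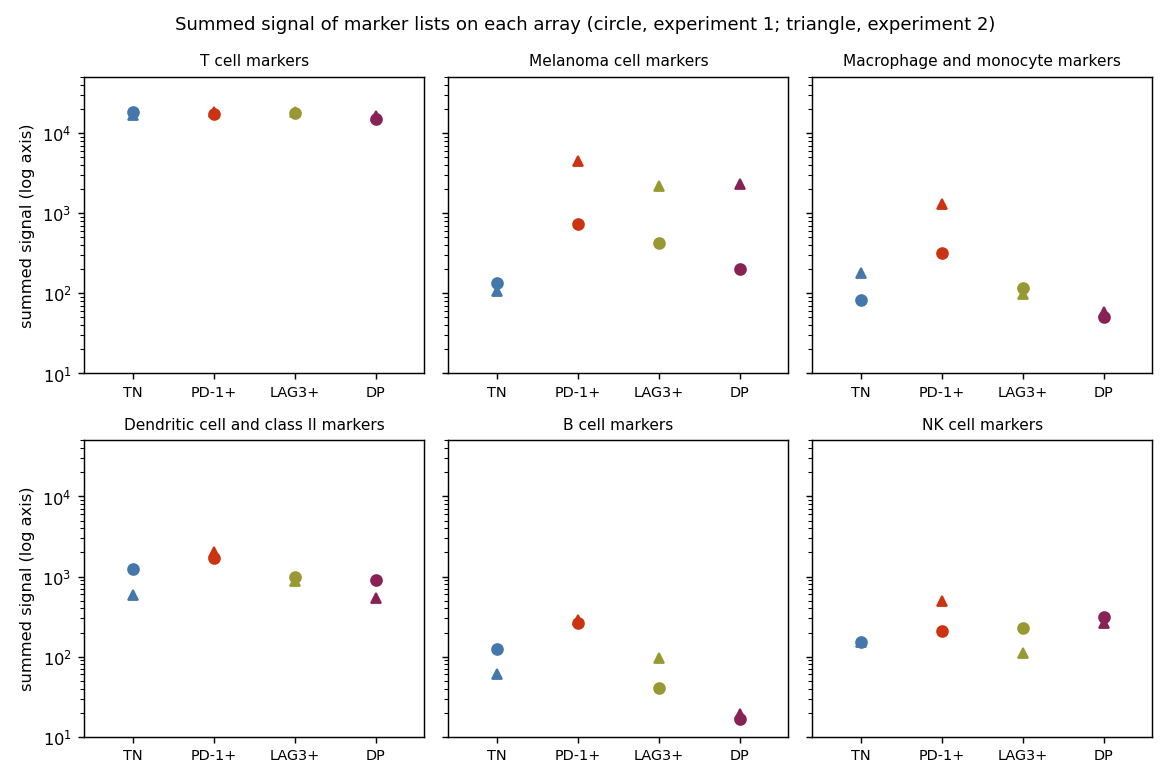
Summed signal of 6 marker lists on each array, on a log axis, by population (TN, triple-negative; DP, double-positive), with circles for experiment 1 and triangles for experiment 2. After quantile normalisation T cell markers summed to 15100 to 18500. Melanoma and macrophage markers were highest on the PD-1+ array of experiment 2, at 4470 and 1290.

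PD-1+ cells were also set against the other receptor-positive cells, using the same PD-1+ arrays. Against LAG3+ cells, 2 genes were higher (0.0253%), Cyp4f18 and Chil3, and 4 lower (0.0507%). Against double-positive cells, 2 were higher (0.0253%), Cyp4f18 among them, and 2 lower (0.0253%). Igfbp7, a secreted binding protein of insulin-like growth factors, read 4.17 and 4.25 in PD-1+ cells, 8.73 and 8.19 on the LAG3+ arrays, with 9.93 and 9.15 in double-positive cells, at least 12.2-fold and 25.7-fold lower in PD-1+ cells (adjusted p = 0.0316 and 0.0161). Triple-negative cells, at 4.84 and 4.51, were near the PD-1+ arrays.

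Clgn, a chaperone best known from the testis, was likewise at least 5.47-fold lower than in LAG3+ and 4.74-fold lower than in double-positive cells (adjusted p = 0.0316 and 0.0321). Slc6a6 and Ccdc181 were at least 11.7-fold and 8.39-fold lower than in LAG3+ cells (adjusted p = 0.0478 for both). With the replicate block none of the 6 differences from LAG3+ cells passed (adjusted p = 0.0741 to 0.0993), and Clgn was lost against double-positive cells (0.0543). A test of the gap between the 2 PD-1+ arrays beyond the experiment shift of the other populations called 0 genes (0%; limma, lowest adjusted p = 0.0648, with 1609 genes at an unadjusted p under 0.05).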

How the data were processed

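Unnormalised probe intensities and a detection p-value for each array were deposited by the authors, per the file headers; the values, with a median of its own for each array, show no normalisation. The authors' normalised intensities, of unstated make, served as an alternative only. Neither the scanner software nor the RNA amplification method is given in the sources used here. Of 25697 probes, 23978 carried a single symbol in GEO's platform table, 0 carried several, and 1719 were unlisted. Symbols were updated by gene identifier for 23962 through RefSeq names (assembly GRCm38.p6), 1038 probes were named by accession, and 681, TLK2 among them, kept the file's name.

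Intensities were background-corrected, quantile-normalised and taken to log2 with neqc of limma 3.58.1 (R 4.3.3, offset 16, with the background moments inferred from detection p-values). The offset compresses changes of dim genes. The brightest probe stood for a gene. Requiring detection (p under 0.05) on 2 or more arrays kept 7893 genes and removed 9937. lmFit and eBayes ran on 8 arrays with no covariate, two-sided, with Benjamini-Hochberg adjustment in each comparison (4 residual and 2.98 prior degrees of freedom, median SE 0.448). The procedure was tested on simulated independent normal values, with a single spread per gene for all populations. That setting holds no noisier PD-1+ pair, no background floor and no pairing by experiment, so it cannot show how the fit handles them.

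The labels say that a number marks a shared experiment, so it pairs the samples. The main fit does not use this pairing, and the fit with the replicate block does. Deviations from the group means correlated at 0.092 to 0.222 between same-numbered arrays. Members and gene lists were chosen with earlier results of these data known. Genes were named for being sort or cell type markers, for passing the test, for the largest differences in both experiments or in opposite directions, and, per list, for the largest members in each direction. Klf2, Il7r, Tcf7, Ccl4, Ifng, Tk1, Cdc20, Kntc1, Havcr2, and called genes beyond the 10 largest each way were named after their values were seen, as were H2ac18, H1f2 and H2bc18. Some genes that the rule names are not reported here. Alternatives covered the normalisation, the filter, the probe rule, array weights, the replicate block, the arrays fitted and each array left out. The number of arrays limits the precision.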

Additional observations from a re-analysis of the deposited data

Results flagged for a closer look

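In the 9 genes given here the difference between PD-1+ and triple-negative cells ran in opposite directions in experiments 1 and 2, by over 2 log2 units each way. The gap between the PD-1+ arrays beyond the experiment shift of the other populations was tested with limma and did not pass for any of them (adjusted p = 0.0648 to 0.276). Higher in experiment 1 and lower in experiment 2 were Ppp1r12c, a myosin phosphatase subunit (3.29 and -2.51), Plxdc1 (2.60 and -3.19), Phf13, a reader of methylated histone H3 (2.54 and -3.95), and Pole3, a subunit of DNA polymerase epsilon (2.34 and -3.61). A second probe of Plxdc1 did not show this, at 0.06 and 0.10. Those of Phf13 and Ppp1r12c did, at 1.67 and -1.15 and at 2.17 and -1.27.

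Lower in experiment 1 and higher in experiment 2 were the splicing factor gene Prpf18 (-5.24 and 3.53), Dis3l, an exosome nuclease (-3.88 and 3.38), Poldip2 (-3.75 and 3.53), Tmem65 (-3.07 and 2.93) and Cdc7, a kinase that fires replication origins (-2.86 and 3.30). In each the low PD-1+ array read near background: Prpf18 gave 4.16 and 9.03 on the PD-1+ arrays, and Cdc7 4.22 and 7.50. With 1 array a population in each experiment, these are single-array values.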

How the results depend on the processing

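The main counts were 18 higher and 24 lower against triple-negative cells, 6 differences from LAG3+ cells, 4 from double-positive cells, and 252 and 463 genes moved by at least 1 log2 unit up or down in both experiments. With the replicate block, the paired fit, 16 were higher and 12 lower, 0 differed from LAG3+ cells and 5 from double-positive cells. Array weights, which gave the PD-1+ pair 0.46, left 0 and 0 against triple-negative and 0 against LAG3+ cells. Fitting only the compared arrays left 0 in each comparison. Leaving out 1 array at a time gave 0 to 115 higher, 0 to 180 lower, 0 to 165 against LAG3+ and 0 to 378 against double-positive cells, with the counts above 0 only when a PD-1+ array was the one left out. There the lone PD-1+ array is assumed to vary like the other groups. Leaving out a triple-negative, LAG3+ or double-positive array removes a residual degree of freedom, and 927 to 994 genes then had an unadjusted p under 0.05 against triple-negative cells. Raw intensities without background correction gave 13 lower, 2 against LAG3+, 12 against double-positive, and 76 and 95 in both experiments. Percentile scaling, chosen after seeing the data, gave 49 higher, 4 lower, 2 against LAG3+, 48 against double-positive, and 2560 and 143 in both experiments. Against double-positive cells the authors' values gave 8 and no filter 26. Detection on 2 of the 4 compared arrays gave 0 against LAG3+ and 2 against double-positive cells. The cause of these moves was not tested. No called difference changed sign. Among the printed genes 1076 alternative values of the difference from triple-negative cells kept their sign and side of the threshold, 439 lost the threshold and 21 gained it. In 19 printed genes, none of which passed against triple-negative cells in the main fit, 43 values changed sign, as did 87 in 50 unprinted genes of the naming rule. Percentile scaling, with its shift of 0.80 in all genes, gave 0.77 for Cd22, 0.67 for Klrb1c, 0.39 for Klre1, 1.01 for Plxdc1, 0.32 for Phf13, 0.40 for Pole3, 0.32 for Poldip2, 0.094 for Tmem65, 0.82 for Igfbp7 and 0.024 for Cd28, and Cd3e lay at -0.21 relative to the shift. Raw intensities gave 0.18 for Phf13, 0.025 for Pole3, 0.43 for Poldip2 and 0.050 for Tmem65. The mean of all probes gave -0.21 for Cd8b1 and 0.58 for Cd28. Leaving out 1 array at a time gave ranges across 0 for the genes that opposed themselves between experiments, namely Plxdc1 (-1.81 to 1.22), Phf13 (-3.81 to 2.41), Ppp1r12c (-1.23 to 2.01), Pole3 (-3.04 to 1.76), Prpf18 (-3.29 to 1.58), Poldip2 (-2.89 to 2.67), Dis3l (-2.22 to 1.72), Tmem65 (-1.80 to 1.66), Cdc7 (-1.42 to 1.86), Mcm10 (-0.87 to 3.57), E2f1 (-1.43 to 2.75), Mcm2 (-0.60 to 0.87), Cd28 (-0.72 to 0.65) and Tyrobp (-1.29 to 1.99), and also for Klre1 (-1.39 to 0.47) and Cd8b1 (-0.034 to 0.39). Signal was dim: detected probes were 1.18 times as bright as undetected ones on the PD-1+ array of experiment 2, against 1.79 on the triple-negative array of experiment 1.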
